A study of Mus musculus with 12 samples.

Results

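The Hox genes were followed through 12 RNA-seq libraries of mouse intestine, 6 of small intestinal crypts and 6 of colon tumors. Members were the protein-coding entries whose symbol consists of Hox, a cluster letter from a to d and a paralog number. This rule found 40 entries for 39 genes among the 54532 entries of each table, of which 22046 were protein coding. Hoxd4 has 2 entries (ENSMUSG00000101174 and ENSMUSG00000115956), and their values were added wherever a level per gene is given. The genes lie in 4 clusters: 11 Hoxa genes within 105 kb of chromosome 6, 10 Hoxb genes within 174 kb of chromosome 11, 9 Hoxc genes within 116 kb of chromosome 15 and 9 Hoxd genes within 96.8 kb of chromosome 2.

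The crypt libraries came from Wild type mice (3 libraries) and ieCtnnb1KO mice (3 libraries), in which an intestinal enhancer of Ctnnb1 is deleted. The tumor libraries came from APCmin/+ mice (3 libraries), called control tumors here, and from APCmin/+;ieCtnnb1KO mice (3 libraries), called knockout tumors, so that every tumor carried the Min allele of Apc. All mice were adult and untreated per the labels, on a C57BL/6 background per the study's methods, and the deletion is a germline one that every cell type carries. Crypts were detached with EDTA and filtered, whereas tumors were taken as tissue. The labels give no segment of the small intestine and no position of a tumor in the colon. Depth was even, with 14457896 to 16074777 fragments on genes per crypt library and 14648696 to 16156712 per tumor library, recovered from the deposited values. Hox genes held 3045 fragments over the 6 crypt libraries and 73466 over the 6 tumor libraries. Levels are given as FPKM (fragments per kilobase of gene, scaled to depth), and sets of values follow replicates 1, 2 and 3.

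Hox genes encode homeodomain transcription factors that give cells a position along the head-to-tail axis. Their order on the chromosome matches their order of expression, so genes with low paralog numbers are used in anterior regions and genes with high numbers in posterior ones, and in the gut Hoxa13 and Hoxd13 mark the hindgut and what forms from it. The caudal-type factors Cdx1 and Cdx2 act upstream of Hox genes in the embryo, where Wnt signaling through β-catenin, the product of Ctnnb1, feeds into both.

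The tissue labels were checked against marker genes. The epithelial gene Epcam stood at 659 to 797 FPKM in crypts and at 696 to 896 in tumors. The lysozyme gene Lyz1 of Paneth cells stood at 6169 to 11466 FPKM in crypts and 677 to 1665 in tumors, and the enterocyte lactase gene Lct at 57.5 to 138 in crypts and 0.0195 to 0.115 in tumors. Car1, a carbonic anhydrase of colonic epithelium, stood at 46.7 to 201 FPKM in tumors and was at 0 in 5 of 6 crypt libraries. The colonic list as a whole did not separate the tissues, with sums of 317 to 574 FPKM in crypts and 263 to 798 in tumors, and its leading gene Muc2 stood at 234 to 414 in crypts and 114 to 419 in tumors. Gata4, a factor of the proximal intestine, stood at 20.4 to 37.5 FPKM in crypts and at 0 to 0.0931 in tumors. The mesenchymal collagen gene Col1a1 stood at 0.122 to 0.482 FPKM in crypts and at 68.5 to 151 in tumors, so the crypt libraries held far less mesenchymal RNA than the tumor libraries. In such mixed tissue, fewer cells of a type and less RNA per cell cannot be told apart.

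Ctnnb1, whose enhancer was deleted, stood at 121, 134 and 123 FPKM in wild-type crypts and at 102, 104 and 105 in knockout crypts. In tumors it stood at 299, 363 and 358 FPKM in controls and at 279, 248 and 250 in knockouts. Every knockout library lay below every control library of its table, with log2 differences of -0.28 in crypts (limma adjusted p = 0.849) and -0.39 in tumors (adjusted p = 0.303). Neither passed the adjusted threshold of 0.05.

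Several libraries stood apart from their group. Stomach genes were present in wild-type crypts, where the mucosal peptide gene Tff2 stood at 122, 53.6 and 1.09 FPKM against 0.105, 3.37 and 0.122 in knockout crypts. Gkn1, a gastrokine of stomach mucosa, stood at 7.08, 8.27 and 0 FPKM in wild-type crypts and at 0 in all 3 knockout crypt libraries. Wild-type replicates 1 and 2 thus held more stomach RNA than the other 4 crypt libraries. In tumors, Xist, the RNA of the inactive X chromosome, stood at 114 FPKM in control replicate 3, at 61.4 in knockout replicate 3 and at 0.0623 or less in the other 4 tumors. Ddx3y, a Y-linked gene, stood at 0 in control replicate 3, at 0.0247 in knockout replicate 3 and at 8.65 to 12.9 in the other 4, whereas all 6 crypt libraries held Ddx3y at 8.32 to 9.86. Each tumor group therefore held 1 library with a female and 2 with a male pattern.

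**Figure D1:**
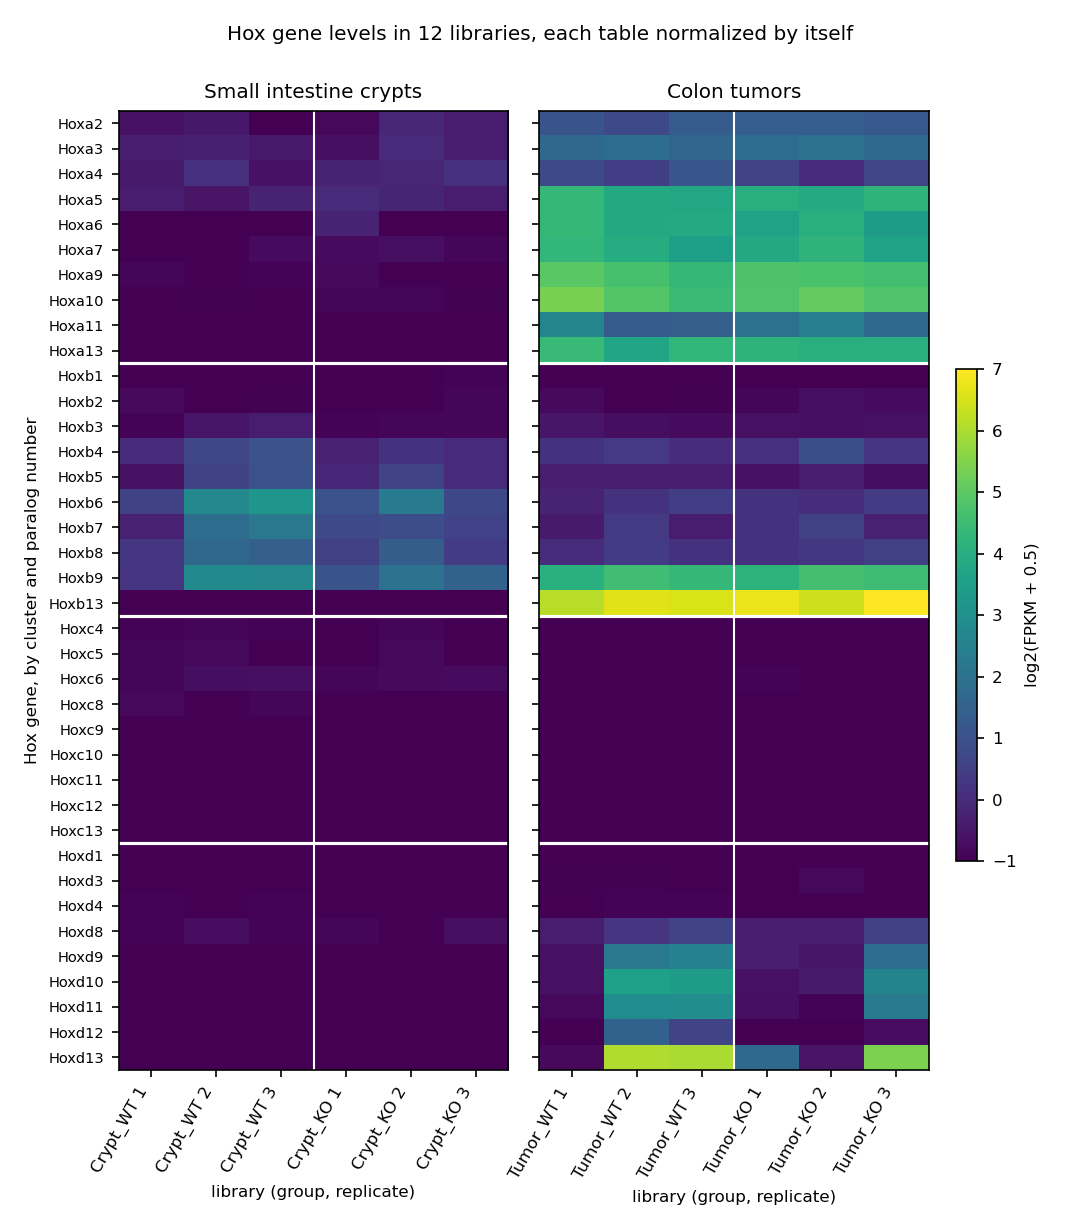
Level of 38 of the 39 Hox genes as log2(FPKM + 0.5), by cluster and paralog number (vertical axis), in the 6 crypt libraries (left) and the 6 tumor libraries (right), with a white line between control and knockout. In crypts Hoxb4 to Hoxb9 have the highest means, though not the highest values in every library, and tumors show most Hoxa genes, Hoxb9 and Hoxb13 in every library and Hoxd9 to Hoxd13 in some.

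The heat map of Hox genes sets the tables side by side. They were normalized separately, so no test was run between them, and tissue, tumor state, Apc genotype, tissue preparation and table cannot be told apart. Both libraries with a female pattern were tumors. The study states an age for the tumor mice but none for the mice of these crypt libraries, so age is not known to match. In crypts, 6 of 39 genes had a mean of at least 0.5 FPKM, all of them Hoxb genes. In tumors, 22 did, made up of 10 Hoxa, 6 Hoxb, 6 Hoxd and 0 Hoxc genes. Lowering the level to 0.1 FPKM took the crypt count to 11.

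Promoter sequences are shown for Hoxb8, of the genes that vary together in crypts below, and for Hoxd8, Hoxd11 and Hoxd13, of those that do in tumors, chosen because they hold at least 2 motif matches. They come from RefSeq (GRCm38.p6) and span 250 bases before to 50 after a start, on the plus strand, 5′ to 3′. Capitals mark matches on either strand to TTTAT, a core that caudal-type factors bind, or CTTTGA, a core that the β-catenin partners TCF and LEF bind. The windows are chr11:96281655-96281954 (Hoxb8), chr2:74704365-74704664 (Hoxd8), chr2:74679308-74679607 (Hoxd11) and chr2:74667975-74668274 (Hoxd13).
Hoxb8: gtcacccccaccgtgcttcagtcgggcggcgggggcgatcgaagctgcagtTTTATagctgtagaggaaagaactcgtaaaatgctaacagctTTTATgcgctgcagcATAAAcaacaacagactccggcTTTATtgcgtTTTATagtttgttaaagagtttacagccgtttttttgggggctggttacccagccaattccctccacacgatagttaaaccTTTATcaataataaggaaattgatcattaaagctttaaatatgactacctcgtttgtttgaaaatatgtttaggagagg
Hoxd8: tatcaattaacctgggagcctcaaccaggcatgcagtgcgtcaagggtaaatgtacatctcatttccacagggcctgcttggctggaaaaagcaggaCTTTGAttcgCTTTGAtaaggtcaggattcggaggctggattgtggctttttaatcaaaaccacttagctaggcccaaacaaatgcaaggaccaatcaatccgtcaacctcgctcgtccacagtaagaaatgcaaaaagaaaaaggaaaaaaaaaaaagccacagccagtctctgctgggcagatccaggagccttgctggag
Hoxd11: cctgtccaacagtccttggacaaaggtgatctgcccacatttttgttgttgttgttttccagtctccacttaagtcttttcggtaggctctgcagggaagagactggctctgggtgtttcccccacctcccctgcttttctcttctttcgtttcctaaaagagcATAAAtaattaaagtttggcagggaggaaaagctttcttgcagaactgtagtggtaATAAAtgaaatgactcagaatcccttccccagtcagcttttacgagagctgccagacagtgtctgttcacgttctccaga
Hoxd13: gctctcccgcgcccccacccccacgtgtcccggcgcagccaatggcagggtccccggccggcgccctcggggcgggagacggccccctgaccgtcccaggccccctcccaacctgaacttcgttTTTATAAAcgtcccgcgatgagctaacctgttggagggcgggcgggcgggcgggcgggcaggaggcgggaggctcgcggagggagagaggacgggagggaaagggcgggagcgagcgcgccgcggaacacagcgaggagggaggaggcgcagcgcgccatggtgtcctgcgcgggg

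The table held 24 promoters of 22 Hox genes, and Hoxb6, Hoxb9 and Hoxb13 were not in it. TTTAT was found in 9 of the 24 Hox promoters, against 40.0% of all 32851 promoters of the same length. Hoxb8 held 6 matches, Hoxa7, Hoxd11 and Hoxd13 held 2 each, and the 2 in Hoxd13 shared bases on opposite strands. Hoxd4, below a mean of 0.5 FPKM in both tissues, also held 6. CTTTGA was found in 4 of the 24, against 16% of all promoters, with 2 matches in Hoxd8 and in 1 promoter of Hoxa10 and 1 in Hoxd12 and in Hoxa11. Hoxb4, Hoxd9, Hoxd10 and the second promoter of Hoxd11 held no match to either motif. No match of 1 motif overlapped a match of the other in the Hox promoters. A match describes letters in a window and says nothing about binding.

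In crypts the Hox RNA was that of the middle of the Hoxb cluster. Hoxb6, of the central paralog groups, stood at 0.954, 6.33 and 8.67 FPKM in wild-type crypts and at 1.53, 4.35 and 1.16 in knockout crypts. Hoxb9, the most posterior Hox gene at this level in crypts, stood at 0.652, 6.66 and 6.27 FPKM in wild-type and at 1.60, 3.55 and 2.30 in knockout crypts. Wild-type replicate 1 was the lowest library for both genes, wild-type replicates 2 and 3 were the highest, and the knockout values fell in between. The neighbors went the same way, with Hoxb7 at 0.335, 3.05 and 3.97 against 1.19, 1.35 and 1.01 FPKM and Hoxb8 at 0.711, 2.66 and 2.15 against 0.932, 2.06 and 0.838. Hoxb4 and Hoxb5 ranged from 0.335 to 1.57 FPKM and from 0.139 to 1.49. Hoxb6 and Hoxb9 had means of 5.32 ± 3.96 and 4.53 ± 3.36 FPKM in wild type (SD between libraries, n = 3). Within libraries their order changed, with Hoxb6 above Hoxb9 in wild-type replicates 1 and 3 and below it in replicate 2.

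**Figure D2:**
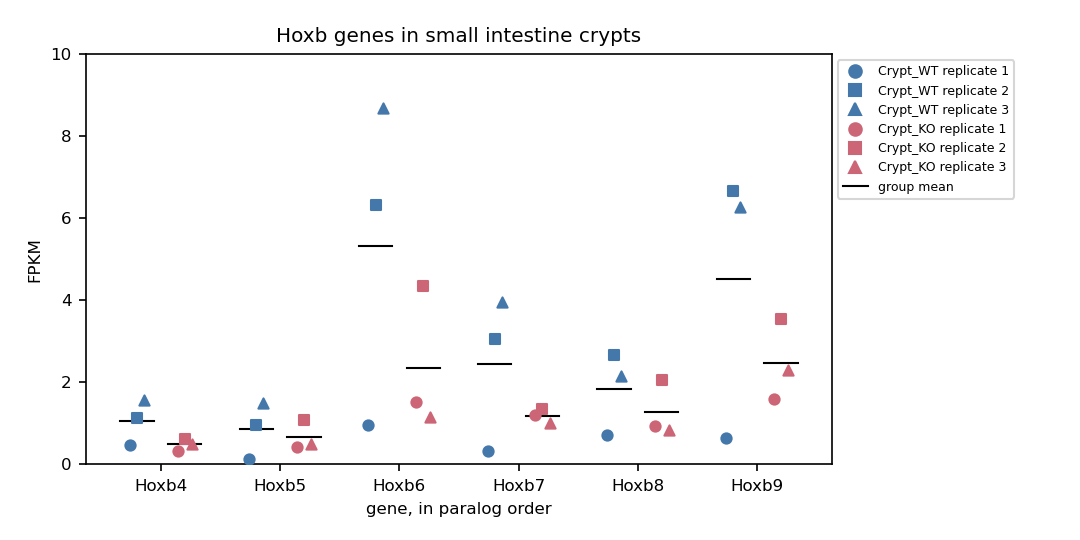
FPKM of Hoxb4 to Hoxb9 (horizontal axis) in each wild-type (blue) and knockout (red) crypt library, with symbols for replicates and a black line for the group mean. Wild-type replicates 2 and 3 lie highest for Hoxb4, Hoxb6, Hoxb7, Hoxb8 and Hoxb9, and wild-type replicate 1 lies lowest for every gene but Hoxb4.

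The plot of Hoxb levels in crypts shows that the genes varied as a block across libraries. Summed Hoxb FPKM was 3.37, 21 and 24.4 in wild-type crypts and 6.04, 13.1 and 6.41 in knockout crypts, and the genotypes overlapped. Summed Hoxa FPKM was lower, at 1.0, 1.33 and 0.879 against 1.62, 1.86 and 1.55, every knockout library above every wild-type one, a difference that was not tested. Genes of the distal small intestine differed between the same libraries. Fabp6, the bile acid carrier of ileal enterocytes, stood at 135, 991 and 2619 FPKM in wild-type crypts and at 678, 617 and 661 in knockout crypts. Slc10a2, the ileal bile acid uptake carrier, stood at 14.6, 70.6 and 58.4 FPKM against 15.1, 16.3 and 33.8. Wild-type replicate 1 was thus the lowest library for Hoxb6, Hoxb9, Fabp6 and Slc10a2, and wild-type replicates 2 and 3 were the highest for each of them.

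The full list of 13 genes of small intestinal Paneth cells and enterocytes, to which both carriers belong, summed to 23547, 35224 and 69522 FPKM in wild-type and 28029, 24507 and 26610 in knockout crypts, with the defensin Defa24 the most abundant and no gene at 0 throughout. The 10 stomach genes summed to 204, 121 and 15.8 FPKM in wild-type and 12.8, 19.6 and 9.98 in knockout crypts, led by Tff2. The library with the lowest Hoxb values, wild-type replicate 1, had the highest stomach sum, but wild-type replicate 2 combined the second highest stomach sum with high Hoxb values. The part of either list in the Hoxb values was not tested.

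Outside this block, crypts held few Hox fragments. Of the 33 genes below a mean of 0.5 FPKM, 18 had at least 1 fragment, and the highest value among them was 0.581 FPKM, for Hoxa4. Hoxa3, Hoxa4 and Hoxa5 were seen in all 6 libraries, at 0.123 to 0.581 FPKM, as were Hoxb3 (0.0289 to 0.270) and Hoxc6 (0.0510 to 0.132). The other 15 genes were at 0 in all 6 libraries: Hoxa11, Hoxa13, Hoxb13, Hoxc9 to Hoxc13, Hoxd1, Hoxd3 and Hoxd9 to Hoxd13. A count of 0 allows up to 3 fragments, which for these genes is at most 0.0507 FPKM (Hoxd11) to 0.207 FPKM (Hoxc12) in the library with the highest such limit, and 0.0968 FPKM for Hoxb13. These limits cover counting error only. Hoxa10 had groups that did not overlap, at 0, 0.0200 and 0 against 0.0564, 0.0548 and 0.0218 FPKM (exact two-sided permutation p = 0.1, the smallest that 3 against 3 allows). These values came from 8 fragments and lay under the limit of 0.0653 FPKM for a count of 0, so no difference was detectable at this depth.

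In colon tumors the most abundant Hox gene was Hoxb13 (ENSMUSG00000049604), the most posterior member of its cluster. It stood at 70.1, 99.2 and 93.2 FPKM in control tumors and at 108, 82.7 and 128 in knockout tumors. It led the Hox genes in all 6 tumors, and the genotypes overlapped. Hoxa10 stood at 40.8, 28.3 and 21.5 FPKM against 27.2, 33.6 and 27.5, and Hoxa9 at 30.2, 24.8 and 19.8 against 26.6, 25.3 and 23.3. Hoxb9 stood at 16.3, 22.7 and 19.8 FPKM against 17.6, 24.6 and 21.7. Hoxd13, described below, was second to Hoxb13 in 3 of the 6 tumors. Control replicate 1 was the highest library for Hoxa9 and Hoxa10 and the lowest for Hoxb9 and Hoxb13.

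The other Hoxa genes of the tumors were not all as even, with Hoxa11 at 1.96 to 5.70 FPKM and Hoxa4 at 0.469 to 1.72. Hoxa13, the hindgut gene of this cluster, stood at 20.3, 12.7 and 19.2 FPKM in control tumors and at 18.1, 15.8 and 16.2 in knockout tumors. Of the central paralog groups, Hoxa5 stood at 19.4, 14.2 and 13.4 against 15.6, 14.4 and 17.9 FPKM, Hoxa6 at 19.8, 14 and 14.4 against 12, 15.9 and 9.91, and Hoxa7 at 19.0, 14.9 and 10.9 against 13.6, 17.9 and 12. All 3 had their highest value in control replicate 1 and overlapped between genotypes. Hoxa3, an anterior gene, stood at 2.68, 3.13 and 2.55 FPKM against 3.09, 3.45 and 2.87. Mean levels in control tumors were 17.4 ± 4.14 (Hoxa13), 16.1 ± 3.23 (Hoxa6), 15.7 ± 3.27 (Hoxa5) and 15.0 ± 4.04 FPKM (Hoxa7, SD between libraries, n = 3). Within libraries their order changed, with Hoxa13 the highest of these genes in control replicates 1 and 3 and the lowest in replicate 2.

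Within the Hoxb cluster of tumors, Hoxb9 and Hoxb13 stood far above the other genes. Hoxb6 stood at 0.377, 0.617 and 0.885 FPKM in control and at 0.633, 0.508 and 0.816 in knockout tumors, with overlapping genotypes. Hoxb4 to Hoxb8 ranged from 0.115 to 1.41 FPKM, beside Hoxb9 at 16.3 or above, and Hoxb2 and Hoxb3 from 0 to 0.203. Of the Hoxc cluster, 8 of 9 genes were at 0 in all 6 tumors, and Hoxc6 had 1 fragment. Hoxb1 and Hoxd1 were also at 0, for 10 genes in all, with limits of 0.0649 FPKM (Hoxc5) to 0.195 FPKM (Hoxc12). The 7 remaining genes below a mean of 0.5 FPKM had at least 1 fragment each.

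The Hoxd cluster differed between single tumors. Hoxd13, the most posterior gene of this cluster, stood at 0.0746, 65.7 and 63.0 FPKM in control tumors and at 2.85, 0.176 and 42.5 in knockout tumors. Hoxd10 stood at 0.136, 11.3 and 10.2 FPKM against 0.137, 0.240 and 5.58, and Hoxd11 at 0.0587, 6.94 and 7.06 against 0.133, 0.0296 and 4.40. Control replicates 2 and 3 and knockout replicate 3 were high for each of these genes, and control replicate 1 and knockout replicates 1 and 2 were low. Hoxd9 and Hoxd12 followed the same order, with Hoxd12 at 0, 2.27 and 1.06 FPKM against 0, 0 and 0.101, and Hoxd8 did so over a smaller range of 0.270 to 1.05 FPKM. High and low libraries occurred in both genotypes, and the exact two-sided permutation p for Hoxd13 and for Hoxd10 was 0.4.

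**Figure D3:**
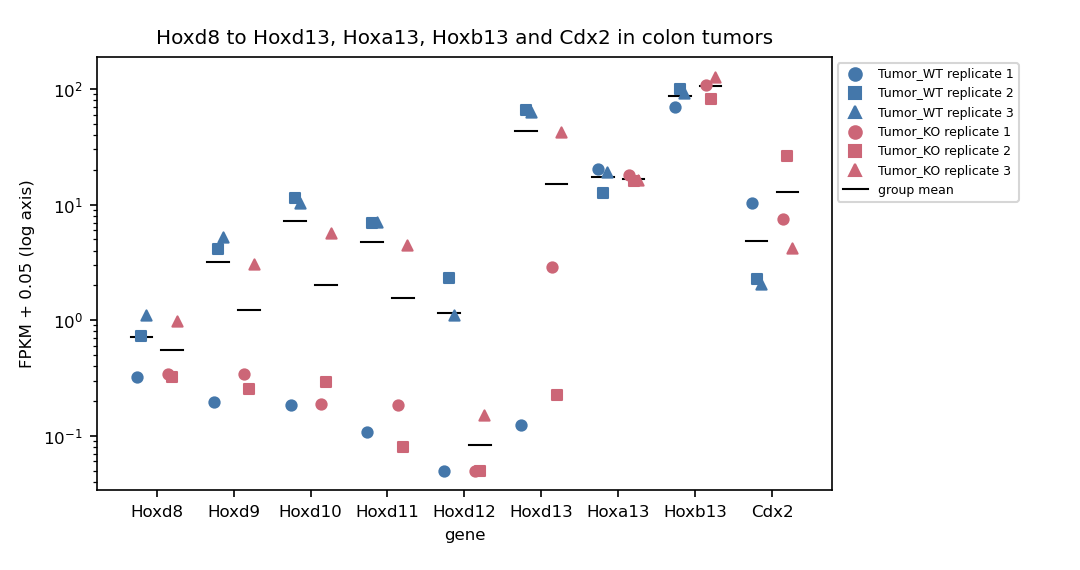
FPKM + 0.05 on a log axis for Hoxd8 to Hoxd13, Hoxa13, Hoxb13 and Cdx2 in each control (blue) and knockout (red) tumor, with symbols for replicates and a black line for the group mean. Hoxd9, Hoxd10, Hoxd11 and Hoxd13 spread widely within both groups and Hoxd12 within control tumors. Hoxa13 and Hoxb13 do not, and Cdx2 is lowest in the 3 tumors with the highest Hoxd13.

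The plot of Hoxd genes and Cdx2 also shows the reverse order for a caudal-type gene. Cdx2 stood at 10.2, 2.22 and 2.01 FPKM in control tumors and at 7.45, 26.5 and 4.17 in knockout tumors, so the 3 tumors with Hoxd13 at 42.5 FPKM or above were the 3 with Cdx2 at 4.17 or below. Cdx1, the other caudal-type gene tested in tumors, did not follow this order and was lowest in control replicate 1, a tumor with little Hoxd13. Hoxa11 stood at 5.70, 1.96 and 2.19 FPKM against 3.59, 4.96 and 2.92, and it was higher in the 3 tumors with little Hoxd13, as was Hoxa9 over a narrower range. Shh, a signal of the gut epithelium, stood at 1.5, 6.73 and 13.9 FPKM against 3.75, 0.876 and 3.99, higher in the 3 tumors with high Hoxd13, although knockout replicates 1 and 3 were close. Cdx2, Hoxa11, Hoxa9 and Shh were set beside this split after the values were seen. The share of all genes that separate the same 3 tumors was not computed. Both tumors with Xist, the replicates 3, were among those with high Hoxd13, and control replicate 2, with Ddx3y at 11 FPKM, was the other one. Mesenchymal genes, 12 in all and led by Vim, summed to 560, 393 and 484 FPKM in control and 561, 670 and 606 in knockout tumors, lowest in control replicates 2 and 3. The part of these genes, of sex or of the cell make-up in the Hoxd values was not tested. Nor was that of tumor position in the colon, which the labels do not give.

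Paralog number and level can be compared within each library, since FPKM is per length. Paralog groups 9 to 13, the posterior groups with 16 of the 39 genes, held 15.2, 29.5 and 24.6% of the summed Hox FPKM in wild-type crypts and 22.3, 23.9 and 28.3% in knockout crypts. In tumors they held 73.4, 84.1 and 84.2% in controls and 80.0, 76.1 and 84.7% in knockouts. Every tumor thus had a larger posterior share than any crypt library, and within each tissue the genotypes overlapped. Group means were 23.1 ± 7.31 and 24.8 ± 3.11% in wild-type and knockout crypts and 80.6 ± 6.17 and 80.2 ± 4.30% in control and knockout tumors (SD, n = 3). In crypts the posterior share was almost wholly that of Hoxb9, which held 25.1% of the summed mean FPKM, against 25.4% for all of paralog groups 9 to 13. Without the most abundant gene the mean share over 6 libraries was 32.0% in crypts (without Hoxb6) and 70.3% in tumors (without Hoxb13). Without the genes whose span overlaps another entry, it was 43.4% in crypts and 98.9% in tumors.

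**Figure D4:**
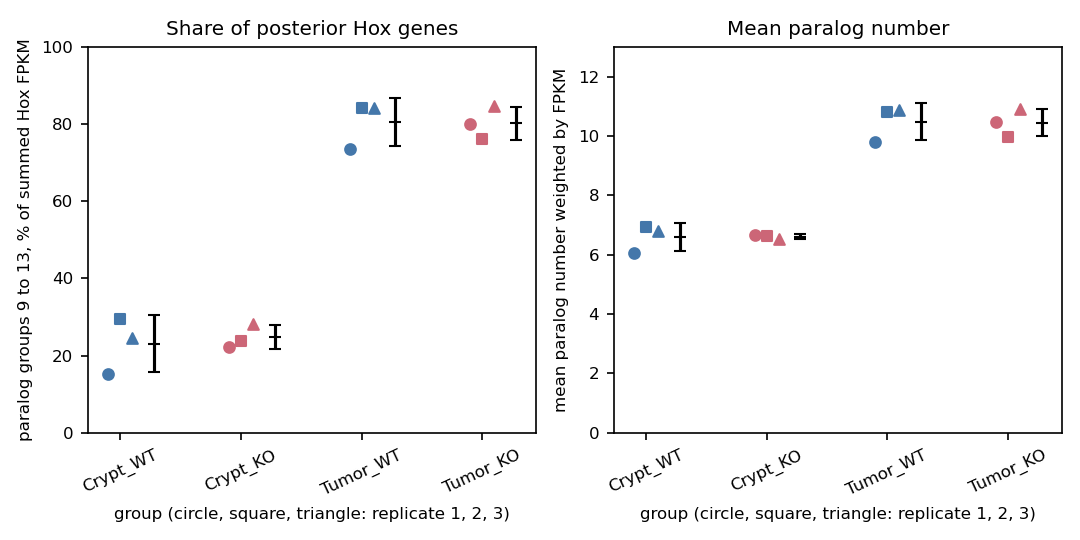
Share of summed Hox FPKM in paralog groups 9 to 13 in percent (left) and mean paralog number weighted by FPKM (right) for each control (blue) and knockout (red) library, with the group mean and SD in black. All 6 tumors lie above all 6 crypt libraries in both measures, and the genotypes overlap within each tissue.

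The plot of posterior shares and mean paralog numbers gives the same order in its right panel. The mean paralog number weighted by FPKM was 6.60 ± 0.484 in wild-type and 6.61 ± 0.0830 in knockout crypts, and 10.5 ± 0.611 in control and 10.5 ± 0.464 in knockout tumors (SD, n = 3). In single libraries it ran from 6.04 to 6.95 in crypts and from 9.78 to 10.9 in tumors. It differed between clusters of a tissue: over all tumors it was 8.44 for Hoxa alone, 12.1 for Hoxb alone and 11.2 for Hoxd alone, and in crypts it was 4.12 for Hoxa alone and 7.01 for Hoxb alone. Summed mean FPKM split into 4.52, 70.0 and 25.4% for paralog groups 1 to 3, 4 to 8 and 9 to 13 in crypts and into 1.88, 17.2 and 80.9% in tumors. Spearman's correlation of paralog number with mean FPKM over the 39 genes was -0.50 in crypts and 0.30 in tumors, as a description over genes that share libraries and clusters and are not independent.

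Knockout and control were compared with limma over all genes of a table with a mean of at least 0.5 FPKM. In crypts, 6 Hox genes entered this test and 34 Hox entries did not. All 6 had a lower estimate in knockouts (Hoxb5 not under voom), as did 47.2% of all genes tested, with log2 differences from -0.83 (Hoxb6, 95% interval -2.54 to 0.89) to -0.13 (Hoxb5, -1.19 to 0.94) and a median of -0.45 against 0.01 over all genes tested. The 6 genes varied together across libraries, so they are not 6 separate observations. None had an adjusted p under 0.05, where 0% of 14176 genes did, and the lowest adjusted p among them was 0.860 (Hoxb4, log2 difference -0.60). At an unadjusted p under 0.05, limma called 0 of the 6 and 5.85% of all genes (829), and voom on recovered fragments called 0 of the 6 and 745 genes. The genotypes did not overlap for 0 of the 6, against 11.9% of all genes.

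The crypt estimates moved with single libraries of either genotype. Without wild-type replicate 1 the differences were larger, and 4 of the 6 genes had an unadjusted p under 0.05, against 1341 of all 14171 genes tested in that fit, with log2 differences of -1.64 (Hoxb6), -1.28 (Hoxb9), -1.24 (Hoxb7) and -0.90 (Hoxb4), and the lowest adjusted p was 0.357 (Hoxb7, range 0.204 to 1.0 over its alternatives). With wild-type replicate 2 left out as well, so that both libraries with stomach genes were gone, it was again 4 genes, against 2226 of 14171, with Hoxb6 at -1.85 and a lowest adjusted p of 0.204 (Hoxb7). That fit has a single wild-type library, which is assumed to vary like the knockouts, and it was chosen after the values were seen. Without wild-type replicate 2 or 3 instead, the differences were smaller, at -0.52 or -0.31 for Hoxb6, -0.20 or -0.03 for Hoxb7 and 0.04 or 0.001 for Hoxb9. Without knockout replicate 2, Hoxb6 was at -1.29, Hoxb8 at -0.65 and Hoxb9 at -0.66. Without knockout replicate 1, Hoxb9 was at -0.18, and without knockout replicate 3, Hoxb6 was at -0.52 and Hoxb8 at -0.18. The sign of Hoxb5 flipped under voom (0.01), without wild-type replicate 3 (0.22) and without knockout replicate 1 (0.02).

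In tumors, 22 Hox genes were tested and 18 entries were not. The estimate was higher in knockouts for 12 genes and lower for 10, with a median log2 difference of 0.02 against 0.01 over all genes tested. Among the abundant posterior genes, those of Hoxa and Hoxb had narrower intervals than those of Hoxd. The differences were 0.27 for Hoxb13 (-0.20 to 0.75), 0.12 for Hoxb9 (-0.27 to 0.51), 0.02 for Hoxa9 (-0.35 to 0.40), 0.01 for Hoxa10 (-0.54 to 0.55) and -0.03 for Hoxa13 (-0.47 to 0.40). The difference of Hoxb13 was 0.09 with quantile normalization, 0.12 without control replicate 1, 0.13 without knockout replicate 3 and 0.44 without knockout replicate 2. The signs of Hoxa5, Hoxa9 and Hoxa10 flipped under other scalings. Under those scalings the median over all genes tested also turned negative, from 0.0075 to between -0.015 and -0.036. Single genes moved further, with Hoxa10 at -0.091 and Hoxa9 at -0.067 under quantile normalization. The cause of the flips was not tested. The signs of Hoxa5, Hoxa7, Hoxa9, Hoxa10, Hoxa13, Hoxb4, Hoxb6 and Hoxb9 flipped when single libraries were left out. The Hoxd genes had wide intervals, with -1.54 for Hoxd13 (-6.84 to 3.75), -1.60 for Hoxd10 (-4.83 to 1.62) and -1.42 for Hoxd11 (-4.43 to 1.59).

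No tumor Hox gene had an adjusted p under 0.05 in limma, where 0% of 16743 genes did, and the lowest adjusted p was 0.381 (Hoxd12, log2 difference -1.28). That difference depended on the scale, at -2.36 with a pseudocount of 0.1, -0.87 with 1 and -3.61 with voom. At an unadjusted p under 0.05 there were 0 of the 22, against 14.5% of all genes (2421), and voom on recovered fragments gave 0 of the 22 and 2606 genes. The genotypes did not overlap for 0 of the 22, against 22.1% of all genes. Without control replicate 1, the control tumor with little Hoxd RNA, 5 Hox genes had an unadjusted p under 0.05, against 2752 of all 16694 genes tested in that fit. These were Hoxd9, Hoxd10, Hoxd11 and Hoxd12, with log2 differences of -2.03, -2.99, -2.67 and -1.97, and Hoxa11 at 0.72, with adjusted p from 0.141 (Hoxd12) to 0.267 (Hoxd11). Without knockout replicate 3 they were -1.78 for Hoxd9, -2.65 for Hoxd10 and -2.45 for Hoxd11. With the other single libraries left out these 3 were smaller than with all 6, down to -0.46 for Hoxd9 and -0.79 for Hoxd11 (without control replicate 3) and -0.88 for Hoxd10 (without control replicate 2), and Hoxd12 fell below the level filter without control replicate 2 or 3. Hoxd13 ran from -0.16 without knockout replicate 2 to -3.82 without control replicate 1. Over all alternatives the adjusted p ran from 0.141 to 0.745 for Hoxd12 and from 0.267 to 0.876 for Hoxd11. Without knockout replicate 2 it was 1 gene, Hoxa6, at -0.52, against 2539 of 16704. Without both tumors with Xist, chosen after the values were seen, it was 0, against 1218 of 16777.

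**Figure D5:**
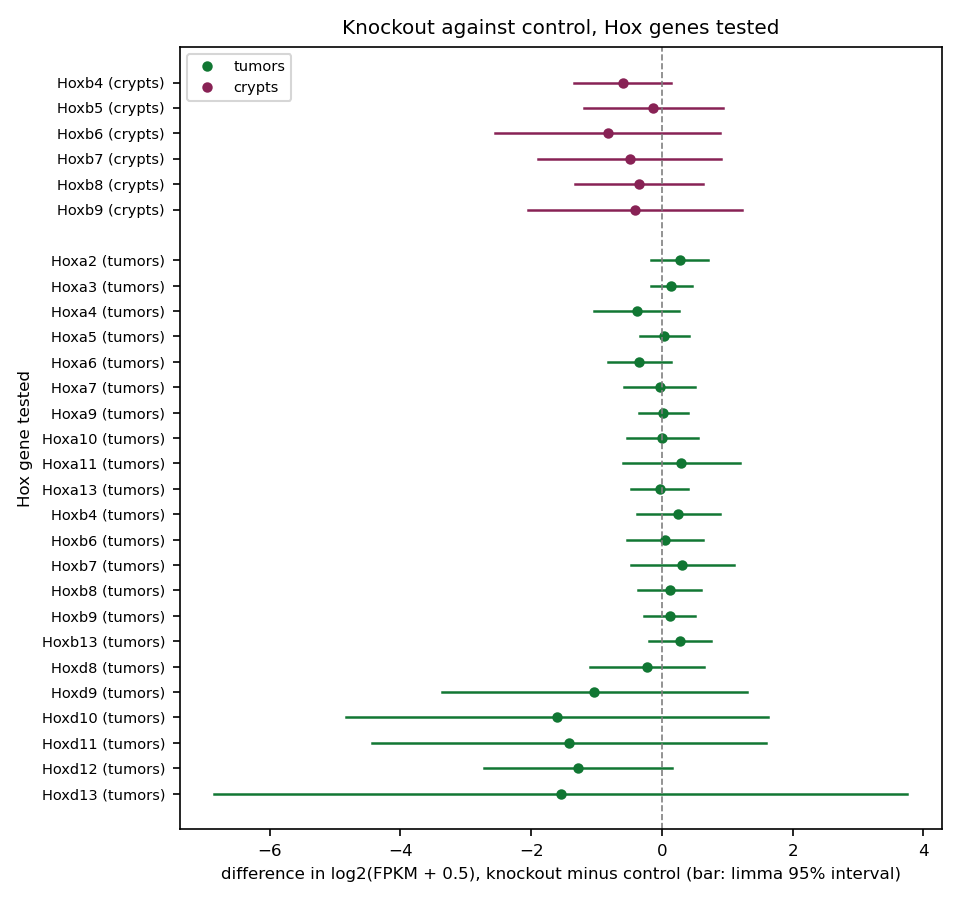
Difference in log2(FPKM + 0.5), knockout minus control, with its 95% interval from limma for each Hox gene tested in crypts (purple, top) and tumors (green). Every interval holds 0, and the intervals are widest for Hoxd9, Hoxd10, Hoxd11 and Hoxd13 in tumors.

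The plot of differences covers the genes above the level filter only, and every interval in it holds 0. Whether the genotype difference itself differs between crypts and tumors was not tested.

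The Hox clusters also hold noncoding genes, here 18 entries in Hoxa, 9 in Hoxb, 7 in Hoxc and 9 in Hoxd. Those tested were 4 in Hoxb in crypts, and 10 in Hoxa, 5 in Hoxb and 3 in Hoxd in tumors. The entry of Mir196a-1, a microRNA gene between Hoxb9 and Hoxb13, stood at 0.633, 12.2 and 18.1 FPKM in wild-type crypts and at 1.2, 2.93 and 2.09 in knockout crypts, in the same order of wild-type libraries as Hoxb6. In tumors it stood at 104, 83.2 and 62.9 FPKM against 72.5, 115 and 93.7. Gm53, a long noncoding gene of the cluster, stood at 0.373, 3.06 and 3.16 FPKM against 0.818, 1.17 and 0.644 in crypts, and at 19.0 to 26.4 in tumors. The pseudogene entry Gm11539, also between Hoxb9 and Hoxb13, did not follow them, at 2.67, 2.35 and 0.458 FPKM against 2.87, 2.89 and 1.92 in crypts (log2 difference 0.56). In the Hoxd cluster, Gm28793 stood at 0, 1.47 and 1.94 FPKM in control tumors and at 0, 0 and 1.09 in knockout tumors, high in the same 3 tumors as Hoxd13. These libraries measure longer RNA over the entries, not mature microRNAs.

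Of the mature 5p microRNAs of the clusters, miR-196a and miR-196b share a seed, as do miR-10a and miR-10b, and these 4 are shown for that pairing. RefSeq (GRCm38.p6) places miR-196a at chr11:96265187-96265208 in Hoxb and with the same sequence at chr15:102973365-102973386 in Hoxc, miR-196b at chr6:52230129-52230150 in Hoxa on the minus strand, miR-10a at chr11:96317186-96317208 in Hoxb and miR-10b at chr2:74726074-74726096 in Hoxd. Capitals mark the seed, bases 2 to 8.
miR-196a-5p: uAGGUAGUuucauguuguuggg
miR-196b-5p: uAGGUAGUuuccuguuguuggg
miR-10a-5p: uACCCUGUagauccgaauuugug
miR-10b-5p: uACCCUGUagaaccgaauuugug

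The entry of Mir196b, whose 85 bases lie inside an exon of Hoxa9, was at 0 in all 12 libraries, also in tumors where Hoxa9 stood at 19.8 FPKM or above. Mir10b had a value in 1 tumor, 3.93 FPKM in control replicate 3. Hotairm1, in the Hoxa cluster, was the only noncoding cluster gene with an unadjusted p under 0.05, 1 of 18 tested in tumors, against 14.5% of all genes. It stood at 2.41, 1.42 and 1.30 FPKM in control and at 3.70, 2.43 and 3.0 in knockout tumors, with a log2 difference of 0.70 (adjusted p = 0.305). Neighbors share sequence: 9 Hox entries share exon bases with another gene on the same strand and 10 on the opposite strand. The overlap covered 62.8% of the Hoxd3 exons and 52.3% of those of Hoxd4 (ENSMUSG00000101174), mostly on the same strand. It covered 52.9% of the Hoxb3 exons, by Hoxb3os, and 35.0% of those of Hoxa11, by Hoxa11os, which stood at 9.62 to 17.9 FPKM in tumors. How shared bases were counted is not stated, so the value of Hoxa11 may hold fragments of Hoxa11os. The low values of Hoxd3 and Hoxd4 are uncertain for the same reason.

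Genes that act with or above the Hox clusters gave no adjusted call in limma in either tissue, where at an unadjusted p under 0.05 the background was 3.48% higher and 2.36% lower in crypts and 8.46% higher and 6.0% lower in tumors. Of the 6 ParaHox and caudal genes, 3 were tested in crypts and 2 in tumors, and Cdx4, Gsx1 and Gsx2 were at 0 throughout. Cdx1 stood at 53.5, 69.2 and 56.4 FPKM in control and at 88.2, 97.3 and 86 in knockout tumors, with a log2 difference of 0.60 (adjusted p = 0.269, unadjusted under 0.05), every knockout above every control. In crypts Cdx1 stood at 98.8 to 176 FPKM and Cdx2 at 82.3 to 106, with overlapping genotypes. Cdx2 levels were thus 82.3 or above in every crypt library and 26.5 or below in every tumor.

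Of the 9 genes of Hox cofactors, the PBX, MEIS and PKNOX partners of Hox proteins, 6 were tested in crypts and 7 in tumors, and 0 had an unadjusted p under 0.05. Pbx2 was the most abundant, at 8.16 to 11.5 FPKM in crypts and 13 to 17.2 in tumors. All 20 Trithorax and Polycomb genes, which keep Hox genes on or off, were tested in both tissues, with 0 at an unadjusted p under 0.05 in crypts and 1 in tumors. This was Phc1, at 8.03, 7.55 and 7.93 FPKM in control and 6.65, 6.14 and 6.74 in knockout tumors (log2 difference -0.25, adjusted p = 0.313). Of 15 retinoid genes, 5 were tested in crypts with 0 at that level and 10 in tumors with 1, the retinoic acid receptor gene Rarb, at 4.62, 4.28 and 4.09 FPKM against 3.41, 2.39 and 2.30 (log2 difference -0.61, adjusted p = 0.269).

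Among 6 signals expressed with Hox genes, only Ihh was tested in crypts, at 12.2 to 28 FPKM with overlapping genotypes. In tumors 4 were tested, and Bmp4, a growth factor of gut mesenchyme, had an unadjusted p under 0.05, at 22.0, 17.5 and 15.8 FPKM in control and 24.2, 32.0 and 29.4 in knockout tumors (log2 difference 0.62, adjusted p = 0.269). Gdf11, a posterior signal, stood at 0.250 to 0.534 FPKM in crypts and at 18.9 to 33.5 in tumors. Of 12 regional factors of gut epithelium, 11 were tested in each tissue, with 0 at an unadjusted p under 0.05 in crypts and 2 in tumors. Foxa3 stood at 28.6 to 31.3 FPKM in control and 31.7 to 43.6 in knockout tumors (log2 difference 0.33), and Onecut2 at 11 to 21.1 against 7.10 to 12.3 (log2 difference -0.75).

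Cell type markers gave 0 adjusted calls in limma in tumors. At an unadjusted p under 0.05, higher values in knockouts were found for 5 of 11 tested genes of colonic epithelium, 6 of 12 of mesenchyme, 2 of 8 of epithelium, 1 of 6 of smooth muscle, 1 of 5 of endothelium, 1 of 3 of squamous epithelium and 1 of 6 of enteroendocrine cells, against 8.46% of all genes. The mucin gene Muc2 led the colonic list, at 151, 123 and 114 FPKM in control and 259, 419 and 295 in knockout tumors. The 11 colonic genes summed to 329, 284 and 263 FPKM in control and 505, 798 and 590 in knockout tumors, without overlap, whereas Hoxa13 and Hoxb13 overlapped between genotypes. The part of cell make-up in the Hox values was not tested. Of the stomach list, 3 genes were tested in tumors and 1, the proton pump gene Atp4a, had lower values in knockouts at that level. No gene of the Paneth and enterocyte (8 tested), immune (7) or neuronal and glial lists (2) had an unadjusted p under 0.05 in tumors.

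In crypts, 5 of 5 tested stomach genes had lower values in knockouts at an unadjusted p under 0.05, against 2.36% of all genes, each with its highest values in wild-type replicates 1 and 2. Lower values were also found for 1 of 13 Paneth and enterocyte genes, the Paneth protease gene Mmp7, for 2 of 7 enteroendocrine genes, Chga and Chgb, and for 1 of 3 mesenchymal genes, Col3a1. Higher values were found for 2 of 8 genes of colonic epithelium, Car4 and Slc37a2. Car4 stood at 63.6, 45.3 and 39 FPKM in wild-type and 82.0, 85.0 and 110 in knockout crypts. The epithelial (8 tested), immune (9), endothelial (1) and neuronal (1) lists had 0 at that level, and no gene of smooth muscle or squamous epithelium reached the level to be tested. None of these passed the adjusted threshold.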

How the data were processed

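The authors deposited FPKM per gene and library, 1 table for each tissue, each scaled by itself. The labels name cutadapt, HISAT2, Cufflinks 2.2.1 and mm10, and the study's methods name HISAT2 and featureCounts for counting. Which tool computed the FPKM is not stated, and the authors tested with DESeq2, which needs counts. In each library, FPKM times gene length was a multiple of a single step for 100% of values (within 0.05 of a whole number), taken as 1 fragment, with 14457896 to 16156712 fragments per library. Hox positions equal GENCODE M21 for 38 of 40 entries. Knockout and control were compared across all genes within a table with limma 3.58.1 (R 4.3.3) on log2(FPKM + 0.5) with a variance trend, for genes with a mean of at least 0.5 FPKM, with Benjamini-Hochberg adjustment and a threshold of 0.05. Individual Hox genes were further compared by exact permutation of their FPKM, whose smallest p is 0.1. The limma fit was tested on simulated data, with 200 changed genes, independent noise and each gene's spread pulled toward the median spread. In crypts (14176 genes) it called 145 of them at a log2 change of 1 and 198 at 2, with 6 and 15 false calls, and in tumors (16743 genes) 168 and 198, with 8 and 8. Hox genes with wider spread were not simulated at that spread. Values in every library of the table with a mean of at least 1 FPKM were given for the 14 Hox genes with the highest means in either table, and for any with an unadjusted p under 0.05, which added none. Hoxb4, Hoxb5, Hoxb7, Hoxb8, Hoxd9, Hoxd12 and Hoxd8, the noncoding genes, Xist and Ddx3y were added after their values were seen. Cdx2, Hoxa11, Hoxa9 and Shh were likewise set beside Hoxd13 only then. Companion genes were named where they define a list's role or had an unadjusted p under 0.05, and Cdx1 and Cdx2 are among those in 2 lists. The members and lists were chosen with earlier results of these data known. Alternatives were other pseudocounts, filters, scalings and variance models, voom on recovered fragments, the replicate block, each library left out, and other weights for the posterior share. Sequences came from RefSeq tables.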

Additional observations from a re-analysis of the deposited data

How the results depend on the processing

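Of 463 results recomputed under alternatives, 400 kept their direction and side of the threshold and 35 reversed, all of them log2 differences of single genes (287 such values were computed). Hox genes called at an adjusted p under 0.05 numbered 0 in both tissues under every alternative run. At an unadjusted p under 0.05 there were 0 to 4 in crypts (4 without Crypt_WT replicate 1, where 1341 of all genes passed) and 0 to 5 in tumors (5 without Tumor_WT replicate 1 and 1 without Tumor_KO replicate 2, where 2752 and 2539 passed) when single libraries were left out. Over all genes, limma called 0 to 3 in crypts (3 without Crypt_WT replicate 3) and 0 in tumors when single libraries were left out, and 1 in tumors with no variance trend. With the replicate block, 0 Hox genes and 0 genes were called in either tissue, with 732 and 1882 genes at an unadjusted p under 0.05 in crypts and tumors. Depth limits the crypt values, where all Hox genes together held 3045 fragments and a count of 0 allows 3.

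For the signs that reversed, the cause was not tested, but with the scalings the median over all genes moved too. In tumors it was 0.0075 in the main fit and -0.032 with libraries rescaled to the same total. It was -0.015 with quantile normalization, -0.031 when rescaled without the 50 highest genes and -0.036 with voom. For Hoxa10, Hoxa9 and Hoxa5 in tumors (0.01, 0.02 and 0.04), values were -0.037, -0.020 and -0.0028 with libraries rescaled to the same total, -0.091, -0.067 and -0.013 with quantile normalization, -0.035, -0.018 and -0.0014 when rescaled without the 50 highest genes, and -0.039, -0.021 and -0.0057 with voom. Leaving out single libraries gave -0.21 to 0.25 (Hoxa10), -0.13 to 0.17 (Hoxa9), -0.059 to 0.20 (Hoxa5), -0.0028 to 0.25 (Hoxb9), -0.24 to 0.092 (Hoxa13), -0.23 to 0.15 (Hoxa7) and -0.12 to 0.21 (Hoxb6) in tumors, and -1.28 to 0.041 for Hoxb9 in crypts (-0.41 with all 6 libraries). Fits without 2 libraries were chosen after seeing the data. Without both tumors with Xist, values were -0.165 (Hoxa10), -0.077 (Hoxa9), -0.142 (Hoxa5) and 0.073 (Hoxa13), and without both wild-type crypt libraries with stomach genes, 4 Hox genes and 2226 of all genes had an unadjusted p under 0.05, with the lone wild-type library assumed to vary like the knockouts.

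Descriptive values moved by their construction, which drops genes or compresses weights. A level of 0.1 FPKM gave 11 Hox genes in crypts (6 at 0.5). The posterior share was 17.7% in crypts and 59.3% in tumors with log2 weights (24 and 80.4% with FPKM), 32.0 and 70.3% without the most abundant gene, and 43.4 and 98.9% without overlapping genes. The weighted paralog number was 4.12 (Hoxa alone), 7.01 (Hoxb alone) and 5.81 (Hoxc alone) in crypts, against 6.60 for all clusters, and 8.44 (Hoxa), 12.1 (Hoxb) and 11.2 (Hoxd) in tumors, against 10.5, with 8.83 under log2(FPKM + 1) weights and 9.16 without the most abundant gene. Hoxd alone in crypts and Hoxc alone in tumors were not run, since 1 and 5 libraries held no value for any gene of the cluster.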
